A study of Mus musculus with 4 samples.

Results

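The collagen genes are the 40 genes, of 17335 in the expression table, whose symbol is Col, a number, the letter a and a number, each of which encodes a collagen α chain. They were measured by RNA-seq in gonadal white adipose tissue (gWAT) of female mice fed a high-fat diet (HFD) with 60% of calories from fat for 18 weeks. AD1KO mice carry a floxed Dnmt1 gene, with loxP sites around exons 4 and 5, and a Cre transgene under adiponectin control, which is active in adipocytes. Their fl/fl littermates carry the floxed gene and keep Dnmt1, the enzyme that maintains DNA methylation. RNA of 4 mice per group was mixed in equal amounts into 1 library, so each value below is that of 1 pool, and the 2 libraries hold no measure of the spread between mice. Values are FPKM, which counts fragments relative to transcript length and library size, so levels can be compared between genes.

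Collagens are triple helices of α chains that form the extracellular matrix. Fibrillar collagens such as types I, III and V build the tensile fibres of the stroma, type IV builds the network of basement membranes, which in fat surrounds every adipocyte and vessel, and type VI forms beaded filaments that lie around adipocytes. FACIT collagens bind to the surface of fibrils. In adipose tissue fibroblasts and their progenitors are known as the main source of fibrillar chains, and adipocytes, endothelial cells and mural cells also make type IV and type VI chains. DNA methylation acts at CpG dinucleotides, and collagen promoters differ widely in how many they hold. Of the 40 genes, 32 had a promoter entry in the RefSeq table of GRCm38.p6. The 250 bases before their starts held 0 to 31 CpG. The 27 with an entry and at least 0.1 FPKM in 1 library had a median of 10, beside 14 over the 11650 genes of that level with an entry. At 1 FPKM or more the medians were 14.5 over 16 collagen genes and 15 over 9562 genes. At least 10 CpG were found in 17 of the 27, compared with 67.0% of the 11650 genes. The 3 promoters printed here show that range for genes that the results turn on. They belong to Col3a1, the most abundant collagen mRNA (chr1:45311288-45311537, plus strand), to Col1a2, the partner chain of Col1a1 (chr6:4505368-4505617, plus strand), and to Col16a1, with the highest ratio among the collagens above 5 FPKM (chr4:130047590-130047839, plus strand). Coordinates are those of GRCm38.p6. Each is read 5′ to 3′ on the gene's strand and ends at the base before the start, and capitals mark each CG, which reads the same on both strands.
Col3a1: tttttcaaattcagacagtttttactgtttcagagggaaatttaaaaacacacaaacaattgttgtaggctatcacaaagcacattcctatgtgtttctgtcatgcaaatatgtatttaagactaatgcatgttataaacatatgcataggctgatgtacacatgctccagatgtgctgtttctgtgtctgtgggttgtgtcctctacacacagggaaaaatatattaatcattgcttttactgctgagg
Col1a2: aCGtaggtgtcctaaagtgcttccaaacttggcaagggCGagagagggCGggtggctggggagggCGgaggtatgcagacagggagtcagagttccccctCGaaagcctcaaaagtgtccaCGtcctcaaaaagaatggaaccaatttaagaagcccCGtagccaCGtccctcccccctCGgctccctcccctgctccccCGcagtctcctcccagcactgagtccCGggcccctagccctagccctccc
Col16a1: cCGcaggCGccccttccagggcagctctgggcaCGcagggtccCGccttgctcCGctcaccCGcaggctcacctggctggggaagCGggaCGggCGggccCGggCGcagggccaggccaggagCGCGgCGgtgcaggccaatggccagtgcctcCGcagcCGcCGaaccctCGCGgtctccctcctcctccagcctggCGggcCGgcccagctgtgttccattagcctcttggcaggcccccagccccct
Col3a1 had 0 CpG in this window, Col1a2 had 11 and Col16a1 had 21. The methylation of these bases was not analysed here, and the count of CpG says nothing of it.

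As a check of the labels, Dnmt1 was at 6.99 and 3.33 FPKM in the fl/fl and AD1KO pools, a log2 ratio of AD1KO over fl/fl of -1.07. Adipoq, the adiponectin gene whose control elements drive Cre, was at 1911 and 3318 FPKM, so both pools hold adipocyte RNA, which does not tell the labels apart. The summed macrophage markers had a log2 ratio of -1.09, near that of Dnmt1. The part of the cell mixture in the Dnmt1 ratio was not tested. The table gives no read counts. Reads were estimated from the steps between low FPKM values, and summed to 17677638 in fl/fl and 17444643 in AD1KO. The intervals given with a ratio are 95% intervals of counting error on these estimated reads and cover nothing else. A gene was tested if it had at least 0.1 FPKM in 1 library, which left 15839 genes, and was called higher or lower in AD1KO from a log2 ratio of 0.5 in either direction. No p-value is given, since 1 library per group allows no test between conditions.

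Most collagen genes had a somewhat higher level in the AD1KO pool. Of the 40, 34 were tested, since Col2a1, Col7a1, Col11a1, Col17a1, Col19a1 and Col24a1 were under 0.1 FPKM in both libraries, and the log2 ratio was above 0 in 27 and below 0 in 7, where 45.3% of all tested genes lay above 0. At the threshold of 0.5, 8 collagen genes were called higher, 2 lower and 24 neither, beside 14.3% of all tested genes called higher and 19.1% called lower. The median log2 ratio of the 34 was 0.30, against -0.04 for all tested genes. In RNA of whole fat pads, fewer cells of a type and less RNA per cell cannot be told apart. The calls leave out most of these genes. The whole counting interval lay above 0 for 21 genes, below 0 for 1 and held 0 for 12. It lay past 0.5 for 4 genes (Col4a4, Col6a6, Col12a1 and Col16a1) and past -0.5 for 0, beside 4.15% and 8.24% of all tested genes.

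Depth separated the collagen genes into well measured and poorly measured ones. In at least 1 library 20 of them reached 1 FPKM, with 155 to 61132 estimated reads over both libraries. Their log2 ratio was above 0 in 18, against 44.1% of the 12706 genes at that level, with a median of 0.32 against -0.05, and the whole interval lay above 0 in 16. Only Col12a1 and Col16a1 of these 20 were called higher and 0 were called lower. Of all genes tested from 0.1 FPKM, 14.3% were called higher and 19.1% lower. The shares called among all genes at 1 FPKM were not computed. All 15 collagen genes with at least 5 FPKM in both libraries had a ratio above 0, from 0.01 to 0.72, where 45.0% of all genes at that level did. The other 14 tested genes had 8 to 239 estimated reads over both libraries, and they hold 6 of the 8 higher calls and both lower calls. Together the 40 genes summed to 1588 FPKM in fl/fl and 1923 FPKM in AD1KO, which is a log2 ratio of 0.28 (0.27 to 0.29). These sums were 0.275% and 0.353% of the FPKM of all genes, which itself differed, at 576696 in fl/fl and 545463 in AD1KO. Of estimated reads, the collagen genes held 0.849% and 1.03%.

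**Figure D1:**
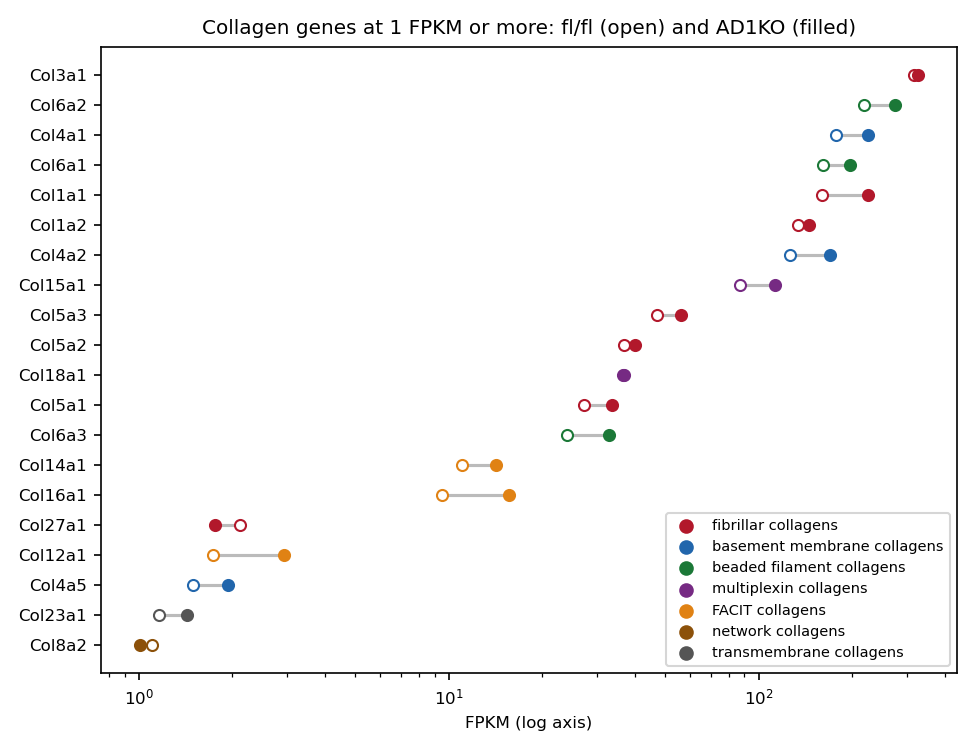
FPKM (log axis) of the 20 collagen genes that reached 1 FPKM, with open circles for the fl/fl pool, filled circles for the AD1KO pool and colours for the collagen class. The filled circle lies to the right in 18 genes and to the left in Col27a1 and Col8a2, and the gap is widest in Col12a1 and Col16a1.

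Among the fibrillar collagens, the fibre-forming class, Col1a1 had the highest ratio, above those of its partner chains. Col1a1, the major chain of type I collagen, was at 160 FPKM in fl/fl and 226 FPKM in AD1KO, which is a log2 ratio of 0.49 (0.47 to 0.52) that fell just short of a call and passes the threshold under each of the 3 other scalings tried. Col1a2, which joins Col1a1 in the same trimer, was at 134 and 145 FPKM (log2 ratio 0.12, 0.08 to 0.15). Col3a1, the chain of type III collagen, which forms fine reticular fibres with type I, was at 317 and 327 FPKM (log2 ratio 0.04, 0.02 to 0.07). Col3a1 ranked first among the collagens in both libraries, but its share of all collagen FPKM was 19.97% in fl/fl and 17.0% in AD1KO, while that of Col1a1 was 10.1% and 11.8%. The type V chains, which sit inside type I fibrils and set their diameter, also differed among themselves. Col5a1 was at 27.3 and 33.7 FPKM, with a log2 ratio of 0.30 (0.24 to 0.36). Col5a3 was at 47.1 and 56.1 FPKM, with a log2 ratio of 0.25 (0.20 to 0.31), and Col5a2 was at 36.8 and 39.9 FPKM, with a log2 ratio of 0.12 (0.05 to 0.18). These 6 chains are the fibrillar collagens of stromal tissue, and all were above 0. Col27a1, a fibrillar chain known from cartilage, was at 2.12 and 1.76 FPKM (log2 ratio -0.27), with an interval that held 0. Col11a2, a cartilage chain, was the only fibrillar gene called at the deposited scaling, at 0.26 and 0.11 FPKM from 28 and 12 estimated reads, with a log2 ratio of -1.17 (-2.32 to -0.18). Col24a1 had at most 0.07 FPKM, and Col2a1 and Col11a1, the other cartilage chains, were listed at 0.01 FPKM in both libraries, the value the table also uses for 0. A library with 0 reads of a gene is compatible with up to 3 reads. Of the cartilage and bone markers, Matn1 and Sp7 were at 0.04 FPKM or less in both libraries, and Sox9 was at 0.39 and 0.54 FPKM. The 11 fibrillar genes summed to 725 and 830 FPKM (log2 ratio 0.19, 0.18 to 0.21).

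The basement membrane collagens had ratios above 0 in 6 of 6 genes. Col4a1 and Col4a2, which together make the type IV network found in nearly all basement membranes, carried almost all of the class. Col4a1 was at 178 FPKM in fl/fl and 225 FPKM in AD1KO, which is a log2 ratio of 0.34 (0.32 to 0.37), and Col4a2 was at 126 and 170 FPKM (log2 ratio 0.43, 0.40 to 0.47). The remaining 4 chains make the type IV networks of particular sites such as kidney and smooth muscle, and were scarce here. Col4a5 was at 1.5 and 1.94 FPKM (log2 ratio 0.37, 0.07 to 0.67). Col4a6 was called higher, at 0.46 and 0.72 FPKM, with a log2 ratio of 0.64 (0.11 to 1.16). Col4a4 had the highest ratio of all collagen genes, 1.78 (0.82 to 3.30), but on 8 estimated reads in fl/fl and 31 in AD1KO, at 0.06 and 0.23 FPKM. Its partner Col4a3 was at 0.13 and 0.15 FPKM from 19 and 22 reads, and its interval held 0. The class summed to 306 and 399 FPKM (log2 ratio 0.38, 0.36 to 0.40).

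All 6 beaded filament collagens, the type VI family, were also above 0. The chains of the common type VI trimer were Col6a1 at 162 and 197 FPKM (log2 ratio 0.28, 0.25 to 0.32), Col6a2 at 219 and 276 FPKM (0.33, 0.30 to 0.36) and Col6a3 at 24.1 and 33.0 FPKM (0.45, 0.39 to 0.52). Col6a3 also gives rise to endotrophin, a fragment released by adipocytes. Its 3 relatives Col6a4, Col6a5 and Col6a6, which can take its place in the trimer, were scarce and all called higher. Col6a6 was at 0.19 and 0.52 FPKM from 23 and 62 estimated reads, a log2 ratio of 1.41 (0.74 to 2.21). Col6a5 was at 0.55 and 0.94 FPKM (log2 ratio 0.76, 0.38 to 1.16). Col6a4 was at 0.15 and 0.26 FPKM (log2 ratio 0.75, -0.04 to 1.71), so its interval held 0. The class summed to 406 and 507 FPKM (log2 ratio 0.32, 0.30 to 0.34).

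The remaining classes hold collagens that attach to fibrils, lie between fibres and basement membranes or span the cell membrane. Col16a1, a FACIT chain, was at 9.52 FPKM in fl/fl and 15.7 FPKM in AD1KO, from 868 and 1413 estimated reads, a log2 ratio of 0.72 (0.60 to 0.84). Col12a1, a FACIT chain of dense connective tissue, was at 1.73 and 2.95 FPKM from 352 and 593 reads, a log2 ratio of 0.77 (0.58 to 0.96). These were the best measured of the higher calls. Col14a1, a related fibril-binding chain, was at 11.0 and 14.2 FPKM (log2 ratio 0.36, 0.25 to 0.47). The FACIT class, with Col9a3, Col19a1 and Col20a1 at 0.25 FPKM or less, summed to 22.6 and 33.2 FPKM, and its log2 ratio of 0.55 (0.47 to 0.63) was the highest of the classes. The multiplexins, basement membrane proteins that carry heparan or chondroitin sulphate, split. Col15a1 was at 87.4 and 113 FPKM (log2 ratio 0.37, 0.33 to 0.41), and Col18a1, the source of endostatin, was at 36.5 and 36.9 FPKM (log2 ratio 0.01, -0.06 to 0.08). The network collagens of type VIII, found in vessel walls and corneal membranes, were Col8a1 at 0.82 and 0.74 FPKM and Col8a2 at 1.10 and 1.01 FPKM, and both intervals held 0. Col10a1, a marker of hypertrophic cartilage, was at 0.21 and 0.25 FPKM. Of the transmembrane collagens, Col23a1 was at 1.16 and 1.43 FPKM (0.30, -0.06 to 0.66), Col17a1 was at 0.03 FPKM in both, and Col13a1 was called lower at 0.12 and 0.04 FPKM on 6 and 2 estimated reads, with an interval from -4.91 to 0.92. Col26a1 was called higher at 0.29 and 0.57 FPKM on 13 and 26 reads, a log2 ratio of 0.95 (0.00 to 2.10). Col28a1 was at 0.85 and 0.62 FPKM with an interval that held 0, and Col7a1, the anchoring fibril chain of skin, had at most 0.09 FPKM.

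**Figure D2:**
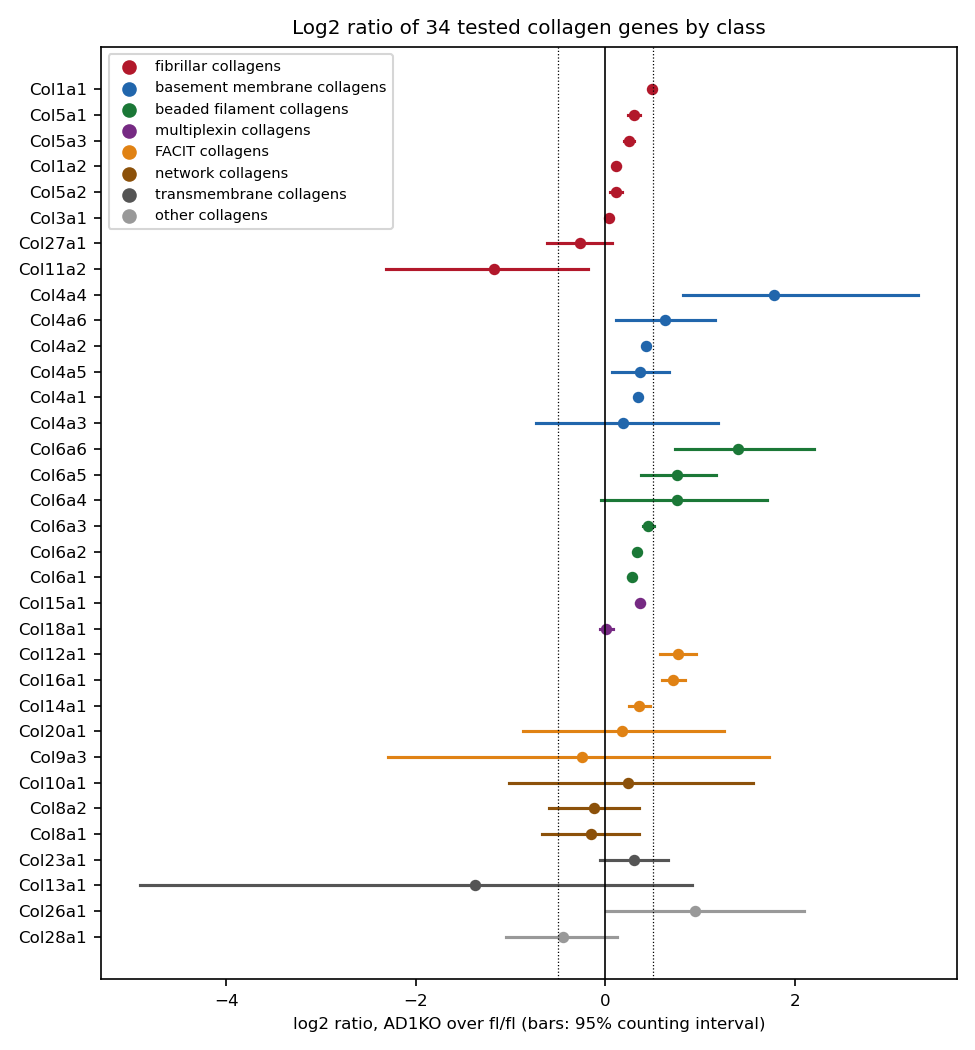
Log2 ratio of AD1KO over fl/fl for the 34 tested collagen genes, grouped by class and ordered within it, with bars for the 95% counting interval, a solid line at 0 and dotted lines at the calling threshold of 0.5 on either side. All basement membrane and beaded filament points lie to the right of 0, and the wide bars belong to genes under 1 FPKM.

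Ratios between collagens within a library do not depend on how the libraries were scaled to each other. The basement membrane sum over the fibrillar sum was 0.422 in fl/fl and 0.481 in AD1KO, which is a log2 difference of 0.19 (0.16 to 0.21). This difference rested in good part on Col3a1, the most abundant gene with nearly the same level in both libraries. Without Col3a1 it was 0.08 (0.05 to 0.11), and without Col1a1 it was 0.29 (0.26 to 0.31). The beaded filament sum over the fibrillar sum differed by 0.13 (0.10 to 0.15) on the log2 scale. Among partner chains, Col1a1 over Col1a2 was 1.20 in fl/fl and 1.56 in AD1KO, which is a log2 difference of 0.38 (0.33 to 0.42). These chains join in a fixed proportion in the type I trimer. Col1a1 over Col3a1 was 0.506 and 0.692, a log2 difference of 0.45 (0.41 to 0.49). Other fibrillar pairs differed less, with log2 differences of 0.07 for Col1a2 over Col3a1, 0.14 for Col5a3 over Col5a2 and 0.19 for Col5a1 over Col5a2. Type IV and type VI chains also differed to unequal extents. Col4a1 over Col4a2 was 1.41 and 1.32, a log2 difference of -0.09 (-0.13 to -0.05), and Col4a5 over Col4a6, on fewer reads, had one of -0.28 (-0.85 to 0.30). Col6a1 over Col6a2 was 0.737 and 0.713, a log2 difference of -0.05 (-0.10 to just under 0), and Col6a3 over Col6a1 was 0.149 and 0.168, a log2 difference of 0.17 (0.10 to 0.24). Col15a1 over Col18a1 was 2.39 and 3.07, a log2 difference of 0.36 (0.28 to 0.44).

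**Figure D3:**
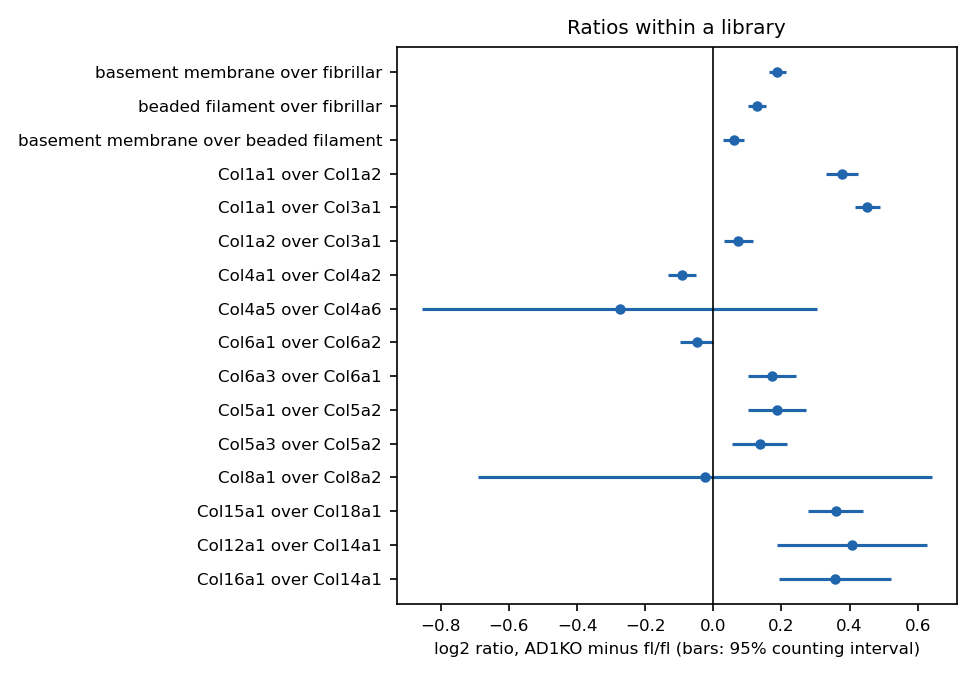
Log2 of the ratio between collagen classes or chains in AD1KO minus that in fl/fl, with bars for the 95% counting interval and a line at 0. Col1a1 over Col3a1 and over Col1a2 lie at 0.45 and 0.38, Col4a1 over Col4a2 at -0.09, Col6a1 over Col6a2 at -0.05 and Col6a3 over Col6a1 at 0.17.

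Several collagen genes are neighbours in the mm9 genome. Col4a1 (chr8:11198423-11312826, minus strand) and Col4a2 (chr8:11312805-11449287, plus strand) are read outward from starts 21 bases apart and overlap by 22 bases, and their log2 ratios were 0.34 and 0.43. Col4a4 and Col4a3 have the same arrangement on chromosome 1 with starts 72 bases apart, and their log2 ratios were 1.78 and 0.19 on few reads. Col4a6 and Col4a5 lie head to head on chromosome X with starts 1309 bases apart, and had log2 ratios of 0.64 and 0.37. Col6a6, Col6a5 and Col6a4 follow each other on the minus strand of chr9:105591747-105999114, and each of the 3 was called higher. They are related copies, and how reads shared between them were assigned is not given in the sources used here. Col3a1 and Col5a2, next to each other on chromosome 1, had log2 ratios of 0.04 and 0.12. Col6a2, Col6a1 and Col18a1, on the minus strand of chromosome 10, had log2 ratios of 0.33, 0.28 and 0.01. In promoter windows of the length printed above, Col4a1 held 31 CpG, Col4a2 26, Col15a1 8 and Col6a1 3, and among the genes called higher with an entry Col4a6 held 3, Col6a4 5, Col6a5 8, Col4a4 10, Col6a6 10 and Col16a1 21.

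Genes for the enzymes and carriers that turn collagen chains into fibres had median log2 ratios of 0.05 to 0.15, beside 0.30 for the collagens. For the counts of called genes in these and all later lists, the background is 14.3% of all tested genes called higher and 19.1% called lower. Of 18 tested genes for procollagen modification and folding, 1 was called higher and 1 lower, with a median log2 ratio of 0.05. Serpinh1, the collagen chaperone HSP47, was at 325 and 453 FPKM (log2 ratio 0.48, 0.45 to 0.52), close to that of Col1a1. P3h4, which takes part in lysine hydroxylation of collagen, was called higher at 6.51 and 9.77 FPKM (0.58), and Plod2, the telopeptide lysyl hydroxylase, was called lower at 5.84 and 3.70 FPKM (-0.66). Ppib, a prolyl isomerase, was at 267 and 248 FPKM, and Colgalt1, which adds galactose to hydroxylysine, at 51.3 and 37.4 FPKM. Of 7 genes for procollagen secretion 0 were called, with log2 ratios from -0.01 for Mia3, the TANGO1 export receptor, to 0.30 for Sec23a, a coat protein. The coat protein Sec13 was at 78.1 and 86.4 FPKM, Sec24d at 18.6 and 21.5 FPKM and Mia2 at 29.1 and 29.0 FPKM. Of 12 genes for procollagen cleavage and crosslinking, 3 were called higher and 1 lower, with a median of 0.14. Those called higher were Pcolce2 and, under 1 FPKM in both libraries, Adamts3 and Tll1. Adamts3 was at 0.20 and 0.41 FPKM from 26 and 53 estimated reads, and Tll1 at 0.05 and 0.26 FPKM from 4 and 22. Pcolce2, an enhancer of C-propeptide removal, was at 41.1 and 99.9 FPKM (log2 ratio 1.28, 1.19 to 1.38), whereas its relative Pcolce was at 126 and 112 FPKM (-0.16). The N-propeptide proteases Adamts14 and Adamts2 were at 1.29 and 0.64 FPKM, called lower, and at 16.2 and 20.3 FPKM, not called. The crosslinking enzyme Loxl3 was at 6.11 and 4.36 FPKM and Lox at 33.2 and 37.4 FPKM, neither of them called.

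Of 9 genes for collagen degradation and its inhibitors, 3 were called lower and 1 higher, with a median log2 ratio of -0.21. The collagenase gene Mmp13 was at 2.09 and 0.36 FPKM (-2.50) and Ctsk, a lysosomal collagen-cleaving protease, at 94.4 and 49.0 FPKM (-0.95), both called lower. The inhibitor Timp1 was also called lower, at 47.7 and 27.3 FPKM (-0.80), while Timp2 was at 209 and 181 FPKM and Timp3 at 20.2 and 27.6 FPKM. Mmp9, a gelatinase, was called higher at 1.03 and 2.43 FPKM (1.23). Of 8 tested collagen receptors, 1 was called higher and 1 lower. Lair1, an inhibitory receptor of leukocytes, was at 17.3 and 4.49 FPKM (-1.94), and Itga1, a chain of a collagen-binding integrin, at 2.78 and 4.41 FPKM (0.66). Ddr1 was at 17.2 and 22.1 FPKM, Ddr2 at 12.5 and 10.8 FPKM, Mrc2 at 33.8 and 42.0 FPKM and Itgb1 at 103 and 91.3 FPKM, none of them called.

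Among the matrix proteins that bind collagens, 2 of 12 were called higher and 0 lower, with a median of 0.12. The called genes were Fmod, a proteoglycan of fibrils, at 12.7 and 21.6 FPKM (0.77), and Ogn, of the same family, at 48.6 and 73.6 FPKM (0.60). Sparc, a collagen-binding protein abundant in fat, was at 1689 and 2354 FPKM (0.48), Dcn at 830 and 951 FPKM (0.20), Postn at 118 and 87.8 FPKM (-0.43) and Tnc at 5.59 and 4.85 FPKM (-0.20). Of 11 partners of type IV collagen in basement membranes, 10 had a ratio above 0 and 2 were called higher, with a median of 0.19. Of all tested genes, 45.3% lay above 0. Pxdn, the peroxidase that forms the sulfilimine bond of type IV collagen, was at 18.4 and 32.0 FPKM (0.80), and Nid2, a linker to laminin, at 11.3 and 17.7 FPKM (0.64). Nid1 was at 88.7 and 114 FPKM (0.36), Hspg2, the perlecan core protein, at 44.0 and 55.5 FPKM (0.34), and Lamb1, a laminin chain and the gene below 0, at 25.1 and 24.4 FPKM (-0.04, -0.12 to 0.04). Lamb1 lay just above 0 under each of the 3 other scalings. The intervals of Lamb1, Lama2, Lama5 and Agrn held 0. Of 13 genes of TGF-β signalling, which induces collagen transcription, 2 were called lower and 1 higher, with a median of -0.02. Tgfb1 was at 101 and 56.4 FPKM (-0.84) and Ctgf at 4.29 and 3.02 FPKM (-0.51, -0.86 to -0.17), both called lower. Ctgf fell short of a call under each of the 3 other scalings (-0.46, -0.42 and -0.46). Tgfb2 was at 0.99 and 1.27 FPKM and not called.

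The cell types of the fat pad did not have equal marker levels in the pools. Fibroblast and stromal progenitor markers summed to 635 FPKM in fl/fl and 359 FPKM in AD1KO, with 3 of 8 called lower (Ly6a, Pi16 and Thy1), 1 higher (Dpp4) and Pdgfra at 8.11 and 7.23 FPKM. Adipocyte markers summed to 18886 and 28059 FPKM, with 6 of 8 called higher and 0 lower. The summed collagen FPKM divided by the summed adipocyte markers had a log2 ratio of -0.29, and divided by the fibroblast markers one of 1.10. Ly6a, at 390 and 158 FPKM, carried much of the fibroblast sum. Without it that sum was 245 and 202 FPKM (log2 ratio -0.28), and the collagen sum divided by it had a log2 ratio of 0.56. The median log2 ratio of the 8 fibroblast markers was -0.06, with 4 of 8 above 0. Smooth muscle and pericyte markers summed to 235 and 392 FPKM with 3 of 6 called higher. These 3 were the smooth muscle genes Cnn1 (log2 ratio 1.57), Tagln (1.18) and Myh11 (0.89), with Acta2 at 0.44. The pericyte markers Rgs5 (0.14) and Cspg4 (-0.05, with an interval that held 0) were not called. Mesothelial markers summed to 87.2 and 162 FPKM with 6 of 6 called higher. Endothelial markers summed to 68.6 and 81.1 FPKM (log2 ratio 0.24), with 1 of 6 called higher. Macrophage markers summed to 1349 and 633 FPKM with 6 of 6 called lower, and T and B cell markers to 87.3 and 49.2 FPKM with 5 of 7 called lower. Epithelial markers summed to 15.8 and 13.2 FPKM with 3 of 6 called lower. Ovgp1, the oviduct glycoprotein gene, was at 3.51 and 0.17 FPKM from 148 and 7 estimated reads (log2 ratio -4.29, -5.73 to -3.31), and Pax8 was at 0.25 FPKM and listed at 0.01 FPKM in AD1KO. The sum is mostly that of Krt8 and Krt18, at 5.32 and 6.42 FPKM and at 5.72 and 5.91 FPKM. Schwann cell markers summed to 7.08 and 7.21 FPKM with 1 of 4 called in each direction, and Sox10 was listed at 0.01 FPKM in AD1KO. The part of these marker levels in the collagen ratios was not tested.

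**Figure D4:**
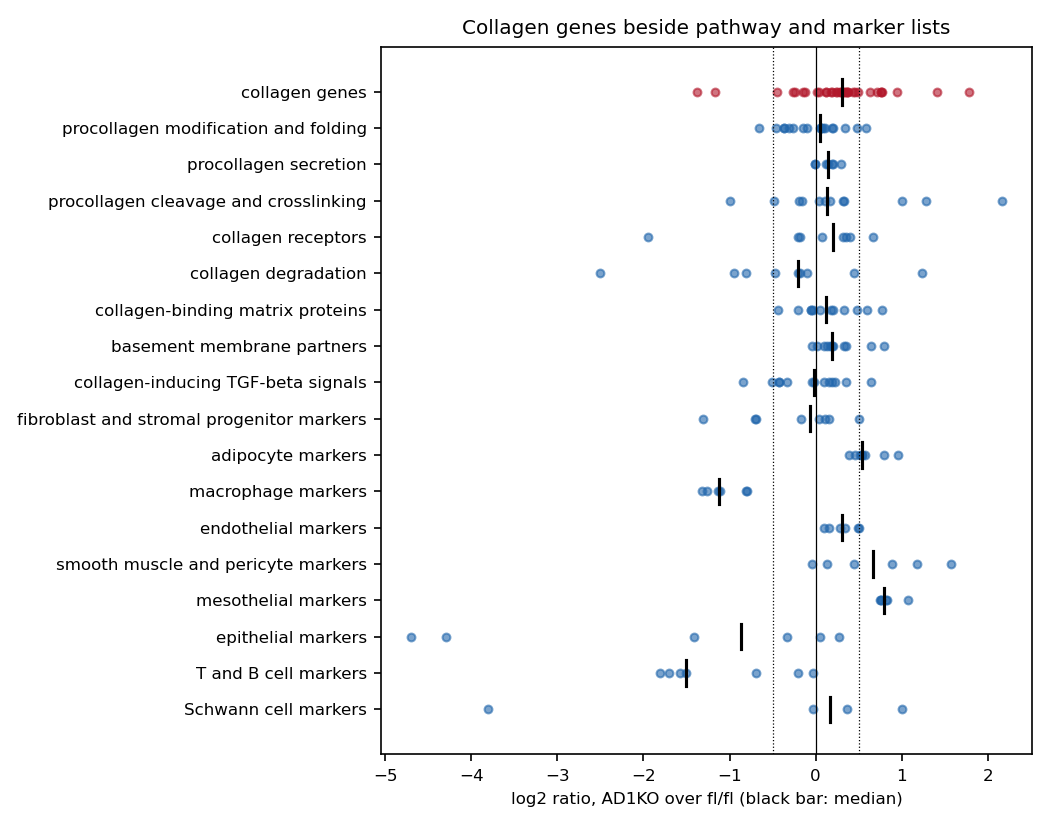
Log2 ratio of AD1KO over fl/fl for each tested gene (points) of the collagens (red) and of the pathway and cell type marker lists (blue) with at least 4 tested genes, with a black bar at the median and dotted lines at the calling threshold. The collagen median is 0.30. Higher medians among the marker lists are 0.79 for mesothelial, 0.665 for smooth muscle and pericyte, 0.54 for adipocyte and 0.31 for endothelial markers. Lower ones are 0.16 for Schwann cell, -0.06 for fibroblast and stromal progenitor, -0.87 for epithelial, -1.12 for macrophage and -1.50 for T and B cell markers.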

How the data were processed

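Poly(A) mRNA of gWAT, pooled from 4 female mice per group, was sequenced on BGISEQ-500, with 1 library for fl/fl and 1 for AD1KO. The authors aligned clean reads to mouse mm9. The aligner and the program that quantified expression are not given in the sources used here. The authors deposited 1 table with FPKM per gene, in which 0 is written as 0.01. The table does not name the unit, which was read from the values and the transcript lengths beside them. It also holds the authors' fold changes, P-values and FDR, which were not used. RRBS data of the series were not used here.

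The value 0.01 was set to 0, and the log2 ratio was computed after adding 0.01 FPKM to both libraries, which understates the change of low genes. With 1 library per group no p-value was computed. Reads were estimated from FPKM × (length − 114) × depth, with depths of 17515000 and 17315000 reads at which low values fell closest to whole reads. Of 257 and 278 low values, 73.9% and 70.5% lay within 0.1 of a whole read, where evenly spread values give 20%. Intervals are exact Clopper-Pearson intervals at 95% for genes, and Poisson intervals for sums and ratios. Reads carry no molecular identifiers in the table, so PCR copies are not told apart. Alternative scalings (median of ratios, upper quartile, and a trimmed mean of M-values that drops 30% of ratios and 5% of levels at each end), other pseudocounts, filters and thresholds were tried. The steps were tried on simulated reads that held counting error only, with no spread between mice or pools.

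Collagen genes, classes and lists were chosen with earlier results of these data known. Named are every collagen gene and, in each list, the 2 largest falls, the 2 largest rises and the 2 most abundant genes of those with at least 1 FPKM, with a few others chosen after their values were seen. The values of 1 list gene are not reported here. Positions are from GENCODE vM1 on mm9, and promoters from RefSeq on GRCm38.p6, whose coordinates are not those of mm9. Scripts ran in Python 3.11.15 with pandas 2.3.3, NumPy 2.4.6 and SciPy 1.17.1, and plots were drawn in Matplotlib 3.10.9.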

Additional observations from a re-analysis of the deposited data

How the results depend on the processing

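With 1 pooled library per group and no replicates, every value here lacks a replicate check. No paired analysis was possible because each group has 1 library. The count of collagen genes called higher was 2 with a pseudocount of 1 FPKM, 2 with a minimum of 1 FPKM, 2 at a threshold of 1 and 4 when the whole counting interval had to pass, and the count called lower was 0 with that pseudocount, 0 with that minimum, 0 with the whole interval and 4 with no filter. With the whole interval, 4.15% of all tested genes were called higher and 8.24% lower. The shares of all genes called with the other pseudocounts, filters and threshold were not computed, so those counts have no background beside them. With the pseudocount or minimum of 1 FPKM the genes still called higher were Col12a1 and Col16a1, and at a threshold of 1 they were Col4a4 and Col6a6. Scaling by trimmed mean of M-values, the upper quartile or the median of ratios added 0.05, 0.09 or 0.04 to every log2 ratio. It gave summed log2 ratios of 0.24, 0.28 and 0.24 for fibrillar, 0.43, 0.47 and 0.42 for basement membrane and 0.32, 0.37 and 0.32 for all collagens. Col1a1, Serpinh1 and Sparc pass 0.5 under each of them, and the collagen genes called higher were 10, 11 and 9, where 15.9%, 17.7% and 15.7% of all tested genes were. With these scalings 50.2%, 54.4% and 49.98% of all tested genes lay above 0, and 18 of the 20 collagen genes at 1 FPKM did. The fibrillar sum had a log2 ratio of 0.16 without Col1a1 and Col3a1 and 0.30 without Col3a1, the basement membrane sum one of 0.50 without Col4a1 and Col4a2, and the sum of all collagens one of 0.33 without Col3a1. Alternatives added after the data were seen were the basement membrane over fibrillar difference without Col3a1, at 0.080, and without Col1a1, at 0.29, and the collagen sum relative to adipocyte markers, at -0.29, and to fibroblast markers, at 1.10, or 0.56 without Ly6a. The median log2 ratio of the collagen genes stayed between 0.22 and 0.39 over its alternatives. Of 765 recomputed ratios of 153 named genes, list genes and markers, 121 left their counting interval and 0 called ones changed sign. A call needs 0.5 in either direction, the scalings added at most 0.09, and a pseudocount keeps the sign of a log2 ratio. The 0 was therefore fixed in advance and shows nothing of stability, and calls that were lost are not part of it. Of 324 list counts 52 moved by over 1.5 times.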

Other observations

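Proteins outside the collagen family that carry a collagen-like triple-helical stretch were listed after the data had been seen. Of 20 tested, 3 were called higher and 5 lower in AD1KO, with a median log2 ratio of -0.09. The complement C1q chains, made mainly by macrophages, were called lower. C1qa was at 1004 FPKM in fl/fl and 375 FPKM in AD1KO (-1.42), C1qb at 1724 and 631 FPKM (-1.45) and C1qc at 989 and 399 FPKM (-1.31). Msr1, a macrophage scavenger receptor, was also called lower at 17.2 and 6.97 FPKM (-1.30), and Sftpd was at 0.23 FPKM and listed at 0.01. Adipoq, made by adipocytes, was called higher (0.80), as were Ccbe1, a secreted factor of lymphatic growth, at 0.66 and 1.26 FPKM (0.92) and Colec11, a soluble lectin, at 0.90 and 1.61 FPKM (0.83). The C1q-related genes C1qtnf1, C1qtnf2, C1qtnf6 and C1qtnf7 had log2 ratios from -0.06 to 0.27 and were not called.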
